A study of Mus musculus with 8 samples.

Results

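Retained-intron transcripts are annotated RNAs of a gene that keep sequence spliced out of its coding transcripts. Of 60483 transcripts in the count table that matched the GENCODE M21 annotation of the mouse genome (build GRCm38), 13063 carry the type retained_intron. The 8838 that had 10 or more counts in at least 2 of the 8 libraries are described here. They belong to 4738 genes, 2473 of which have 1 such transcript, and no gene has more than 9. The main measure is the share, meaning the counts of a transcript as a percentage of all counts of its gene in the same library. Where members are summed, the percentage is of all counts of the library unless a gene or gene list is named.

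The libraries came from glutamatergic cortical neurons made in culture from CGR8 mouse embryonic stem cells and taken at day 8 in vitro. Wild-type (WT) cultures were compared with cultures labelled Eif4g1/Eif4g3 double knockout (DKO), and each genotype had 2 ribosome footprint libraries and 2 total RNA libraries. Cells of both genotypes received cycloheximide, which stalls ribosomes on the message, at 100 µg/ml for 5 minutes. The library descriptions carry codes that differ between the 2 libraries of a group, but the labels do not say whether a code is a culture or a clone, so each p-value reflects only how far these libraries vary, which may be technical. The code of WT replicate 2 reads WT, while that of WT replicate 1 is numbered as in DKO. The footprint libraries held 10486173 to 19745019 counts each and the RNA libraries 14760070 to 44780982.

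The labelled genotype was looked at first. Summed over all its transcripts, Eif4g1, a scaffold of the cap-binding complex, stood at 306 and 304 CPM (counts scaled to the library total) in the WT RNA libraries, and the DKO RNA libraries had 137 and 329. Its paralog Eif4g3 stood at 127 and 139 CPM in RNA of WT, against 112 and 149 in DKO. Only DKO replicate 1 was below WT for Eif4g1, and its footprints were too, at 141 CPM against 251 to 269 in WT, so gene totals did not separate the genotypes, and DKO below means the libraries labelled so. Summed markers of neurons stood at 3089 to 5013 CPM, against 0.101 to 2.28 for microglia and 0.405 to 12.3 for pluripotent cells. Those of fibroblasts and mural cells ranged from 92.2 to 868, with the highest value of each assay in WT replicate 2. Markers of progenitors (948 against 533 to 557 CPM in footprints), astrocytes (648 against 407 to 469), dividing cells, the oligodendrocyte lineage, endothelial and pluripotent cells were also highest in WT replicate 2 in both assays.

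In the nucleus the spliceosome normally removes introns before export. A transcript that keeps an intron may stay in the nucleus, and if it reaches the cytoplasm the ribosome usually meets a stop codon in the intron, which can trigger nonsense-mediated decay. Genes for splicing factors and for the CLK kinases that phosphorylate them are textbook cases of regulated intron retention. Many annotated retained-intron models are also partial RNAs of a few exons, most of whose bases are shared with the coding transcripts.

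The members had a median length of 921 bases (quartiles 648 and 2520), against 2428 for coding transcripts passing the same count rule, and a median of 3 exons. Their bases were, at the median, 45.7% annotated coding sequence, 4.37% untranslated region and 39.8% outside all exons of the gene's coding transcripts. Such bases are called intronic here, and can include sequence beyond the ends of those transcripts. A whole intron of a coding transcript lay inside an exon of 2703 members, and 1998 of these held just 1. The other 6135 held no whole intron, but can hold part of one, such as an exon that runs on past its splice site. Of all members, 46 had no intronic base at all. Most members are therefore not told apart from the coding RNA by a complete intron.

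The whole introns kept by members numbered 3465 in 1975 genes. Their median length was 285 bases, against 1380 for the 76250 introns of coding transcripts in the genes with members. Of the kept introns, 98.1% began with GT and ended with AG, 33 had GC-AG ends and 5 had AT-AC ends. For 3024 of them all coding transcripts gave 1 reading frame, and 2687 (88.9%) held a stop codon in that frame. The median distance from the intron's first base to the end of that codon was 36 bases (quartiles 9 and 76). The codon was TGA in 1234, TAG in 733 and TAA in 720. The 337 introns without one were short, with a median of 91 bases.

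Sequences are shown for kept introns of the members whose shares are given below, so that the letters at the exon end and the first stop can be read. Each starts with the last 15 exonic bases, runs on into the intron and ends at the first stop in frame, which is in capitals.
Clk1-204, intron of 387 bases at chr1:58419734-58420120, minus strand: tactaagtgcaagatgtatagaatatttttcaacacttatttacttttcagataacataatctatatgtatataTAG
Clk4-213, intron of 391 bases at chr11:51273169-51273559, plus strand: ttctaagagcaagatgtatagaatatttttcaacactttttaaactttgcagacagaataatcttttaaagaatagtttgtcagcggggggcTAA
Clk1-204, intron of 871 bases at chr1:58420212-58421082, minus strand: caccattcacacggggtaTGA
Clk4-213, intron of 1055 bases at chr11:51272023-51273077, plus strand: catcagtcgcattcggtaTGA
Hnrnpa3-205, intron of 78 bases at chr2:75661818-75661895, plus strand: gctgtttctagagaggtatttTAA
Sf3b1-203, intron of 1813 bases at chr1:55014563-55016375, minus strand: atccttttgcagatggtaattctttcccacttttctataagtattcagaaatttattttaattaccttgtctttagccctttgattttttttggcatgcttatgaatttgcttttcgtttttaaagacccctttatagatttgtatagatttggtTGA
Rbm5-219, intron of 472 bases at chr9:107759850-107760321, minus strand: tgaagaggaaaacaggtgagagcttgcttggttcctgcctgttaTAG
Eif5b-202, intron of 871 bases at chr1:38033158-38034028, plus strand: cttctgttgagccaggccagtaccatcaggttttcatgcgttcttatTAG
Rpl27a-201, intron of 269 bases at chr7:109519649-109519917, plus strand: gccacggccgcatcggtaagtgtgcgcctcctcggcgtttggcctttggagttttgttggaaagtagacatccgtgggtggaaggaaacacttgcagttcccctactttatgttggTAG

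Clk1 and Clk4 are paralogous kinase genes. Clk1-204 keeps 3 whole introns and Clk4-213 keeps 4, of which 2 each are shown. In the introns of 871 and 1055 bases the first stop in frame is TGA and ends 6 bases into the intron in both genes. In those of 387 and 391 bases the 2 sequences share an unbroken run of 30 bases across the exon end, gcaagatgtatagaatatttttcaacactt, and the stops end 62 and 80 bases in. The Eif5b intron is one of the 33 with GC at its start.

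**Figure D1:**
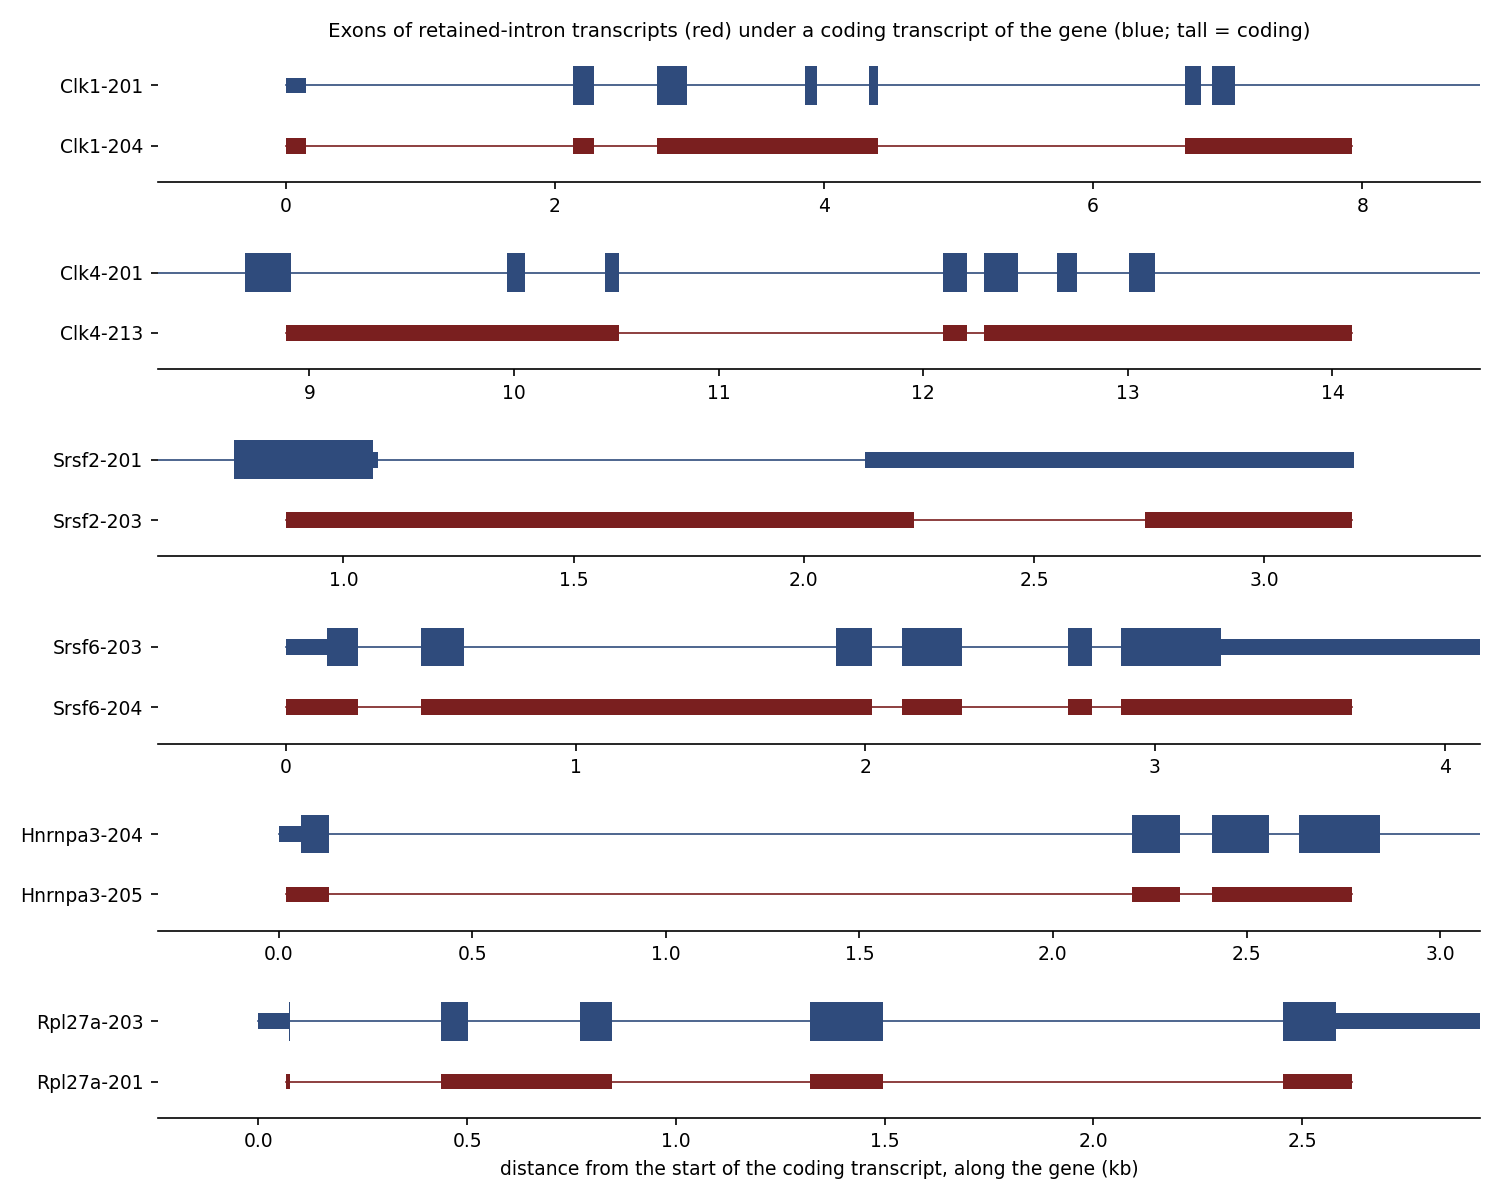
Exons of 6 members (red, lower row of each pair) under the transcript of the same gene with the longest coding sequence (blue, upper row, coding parts tall), as distance in kb along the gene from that transcript's start. Red exons that span the thin blue line are kept introns, such as those of Clk1-204 and Clk4-213.

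The first comparison asks whether members take another part of their gene's counts among ribosome-protected fragments than in RNA. A sum over all members was taken first, as a percentage of all counts of a library and not of the members' genes. It therefore also moves with how many counts those genes hold. By this sum, members held more of the footprint counts than of the RNA counts. They took 7.21% and 7.20% of all counts in the WT footprint libraries and 7.15% and 6.93% in the DKO ones. In RNA they took 4.62% and 4.63% in WT and 4.86% and 4.58% in DKO. All 4 footprint values lay above all 4 RNA values. The means were 7.12% ± 0.128 and 4.67% ± 0.127 (SD, n = 4 each), a difference of 2.45 percentage points (2-sided exact permutation test, p = 0.0286, the smallest that 4 against 4 libraries can give). With footprint and RNA libraries of a genotype paired by replicate number, the exact sign-flip p was 0.125, the smallest that 4 pairs allow. The codes of DKO replicate 2 differ between the assays, so that pair may not be 1 culture.

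Single transcripts went the other way more often than not. By edgeR's quasi-likelihood test of each transcript against its gene, with Benjamini-Hochberg adjustment over 36114 transcripts, 8698 members could be tested, and 140 that were the sole kept transcript of their gene could not. The share was higher in footprints for 1827 members (25.0% of all transcripts tested were higher) and lower for 3760 (32.6% of all were lower), where the members' own percentage was 43.2%. Of the members, 3612 reached 10 counts in RNA libraries only and 444 in footprint libraries only, so many were kept through 1 assay alone. The deepest RNA library held 44780982 counts and the deepest footprint library 19745019. The part of the count rule and of depth in the numbers higher and lower was not tested. Among the 3257 tested members with a mean count of 50 or more, 1120 were higher (34.4%, against 28.1% of all such transcripts) and 1235 were lower (37.9%, against 31.5%). At the threshold, the 968 members that reached 10 counts in exactly 2 libraries had a median mean count of 6.25, and the 1182 left out with exactly 1 such library had 3.75.

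Without a test, all 4 footprint shares lay above all 4 RNA shares for 2017 members (background 30.1%) and below them for 4225 (background 37.6%). Tested within 1 genotype, 1399 members were higher and 2513 lower in WT (backgrounds 19.3% and 23.4%). In DKO, 1320 were higher and 2405 lower (backgrounds 18.6% and 22.6%). No count was recorded in any footprint library for 905 members and in any RNA library for 130.

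The spread between replicates was small beside the assay difference. For the 3280 members with a mean count of 50 or more, the median absolute difference in share was 1.37 and 1.74 percentage points between the 2 footprint libraries of WT and DKO. Between the 2 RNA libraries it was 0.983 in WT and 1.02 in DKO. Between the footprint mean and the RNA mean it was 10.3 points. In 4372 genes with a mean count of 100 or more, members held over 50% of the gene's counts in 441 to 466 genes per footprint library and in 314 to 331 per RNA library. The median percentage over these genes went the other way, at 4.55% to 4.95% in footprints and 6.11% to 6.93% in RNA, and the numbers of genes over 10% overlapped (1665 to 1702 and 1675 to 1760).

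The direction followed how much of the transcript is annotated coding sequence. Of all transcripts tested, 25.0% were higher and 32.6% lower (28.1% and 31.5% at a mean count of 50 or more). For members with under 20% coding bases, the share was higher in footprints for 42 of 1473 tested and lower for 1068. The median log2 ratio of the mean footprint share to the mean RNA share was -3.50. For members with 80% or more coding bases, 455 of 942 were higher and 107 lower, with a median log2 ratio of 1.63. The classes between rose in order, from -2.81 (20 to 40%) through -1.15 (40 to 60%) to 0.52 (60 to 80%). Over all tested members the median was -1.44, and over all transcripts -0.18. With a mean count of 50 or more the 5 classes stood at -3.54, -2.12, 0.24, 1.47 and 1.87, so the 40 to 60% class changed sign (297 higher, 231 lower), and the medians over all such members and all such transcripts were -0.18 and -0.03. Group means at 0 counts were set to the share of 3 counts over the group for these ratios.

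Summed counts showed the same order. Members under 20% coding took 0.190% to 0.222% of footprint counts and 1.07% to 1.15% of RNA counts. Those at 60 to 80% took 2.65% to 2.82% of footprint counts and 0.976% to 1.09% of RNA counts. Those at 80% and over took 1.36% to 1.43% against 0.336% to 0.369%. The 4 footprint libraries stood below the 4 RNA libraries in both classes under 40% and above them in the 3 classes over 40%.

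**Figure D2:**
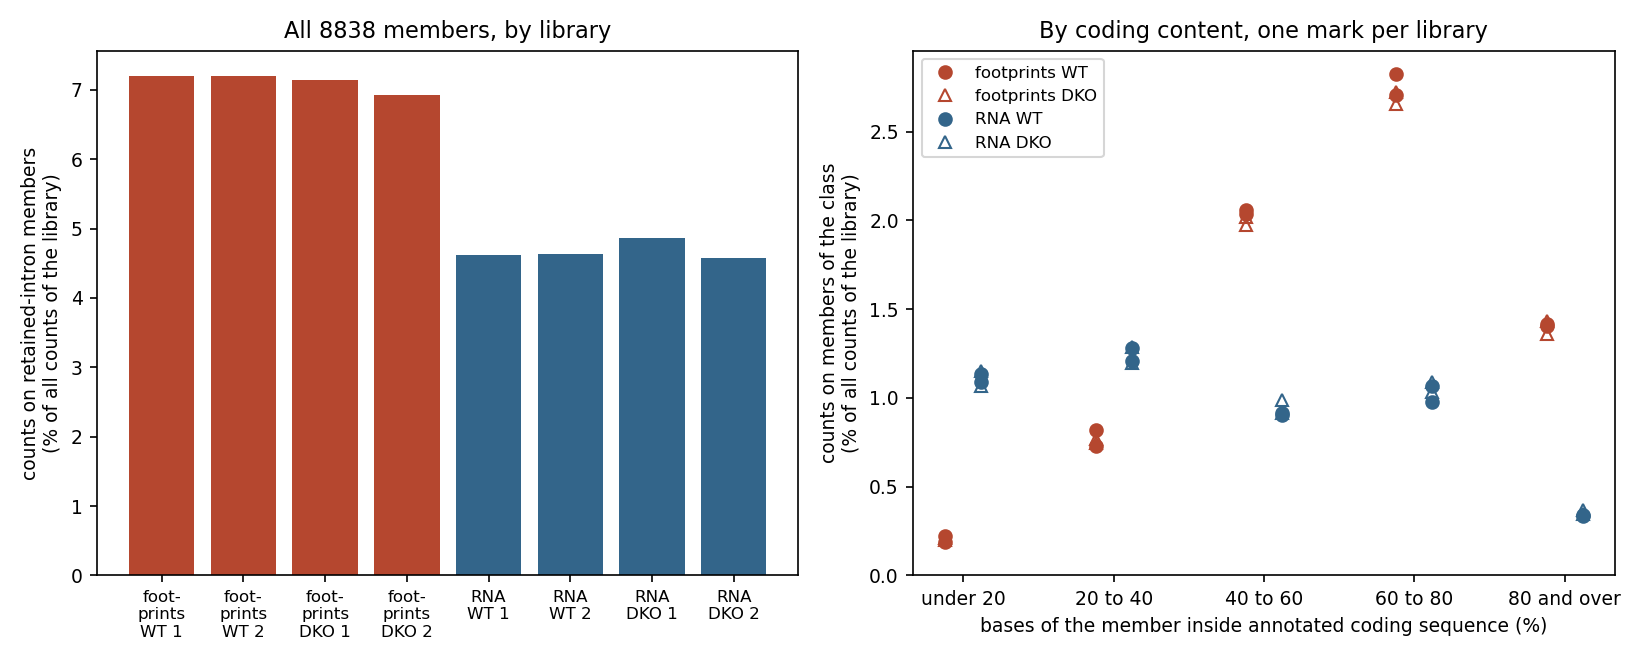
Left, the percentage of all counts of each library that fell on the 8838 members, 6.93% to 7.21% in footprints (red) and 4.58% to 4.86% in RNA (blue). Right, the same split by the percentage of a member's bases in coding sequence, 1 mark per library (circles WT, open triangles DKO), with footprints below RNA under 40% coding and above it from 40%.

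In other kinds of transcript, too, the lowest class stood below the highest. The median log2 share ratio rose from -1.77 (under 20% coding) to 2.30 (80% and over) in processed transcripts, from -1.99 to 2.01 in transcripts annotated for nonsense-mediated decay and from -2.12 to 1.17 in protein-coding ones. In the lowest class the retained-intron median, -3.50, was below those of the 3 other types. That difference between types was not tested. In processed transcripts the 20 to 40% class, at -1.82, lay slightly below the lowest. Across the 8698 members, as a description over transcripts that share libraries and genes, the log2 ratio had a Spearman rho of 0.495 with the percentage of coding bases, -0.426 with the percentage of intronic bases and -0.349 with length.

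**Figure D3:**
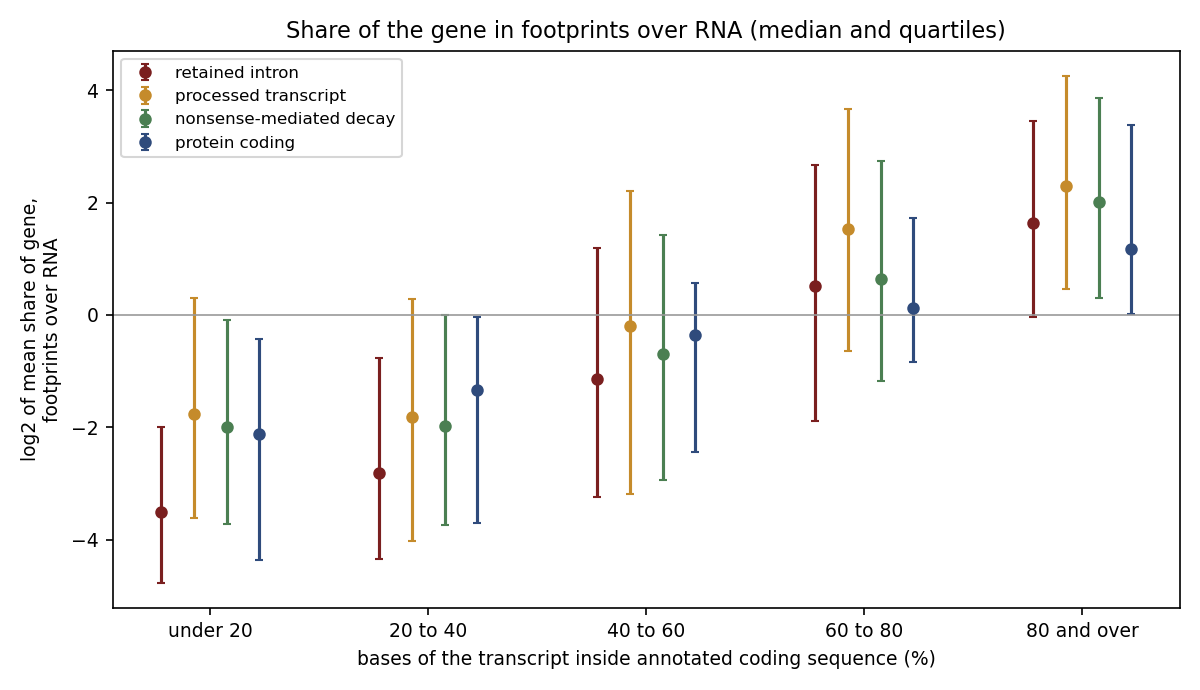
Log2 ratio of a transcript's mean share of its gene in footprints over RNA (vertical), by the percentage of its bases in coding sequence (horizontal), for 4 annotated types. Points are medians over transcripts and bars are quartiles, and retained introns run from -3.50 to 1.63.

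Length and whole introns moved with the ratio too. The backgrounds are again 25.0% higher and 32.6% lower (28.1% and 31.5% at a mean count of 50 or more). The median log2 ratio was 0.26 in the shortest 2951 members, -1.25 in the middle 2945 and -2.83 in the longest 2942. Within the longest class, members under 20% coding stood at -3.63 and those at 80% and over at 0.21. Members with a whole kept intron had a median of -1.86 (351 of 2642 higher, 1262 lower), and those without had -1.22 (1476 of 6056 higher, 2498 lower). With a mean count of 50 or more, the shortest, middle and longest classes stood at 2.21, 0.67 and -2.38. Under that rule members with a whole intron stood at -1.55 (221 higher, 608 lower) and those without at 0.58 (899 higher, 627 lower), so the middle class and the members without a whole intron changed sign. The part of length, coding content and kept introns in one another's values was not tested.

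The members most abundant in RNA held large parts of their genes' counts. Med23-210, a transcript of the Mediator subunit gene Med23 that also spans the small RNA gene Gm23410, held 98.6% and 97.9% of Med23 counts in RNA of WT and 98.8% and 98.4% in that of DKO. Its footprint shares were 54.6% and 58.4% for WT and 58.5% and 57.7% for DKO. Footprint shares were lower in every library, with a fitted log2 change of -0.78 ± 0.15 (SE, adjusted p = 0.000856, edgeR). Gtf2a2-209, from the gene of the small TFIIA subunit, fell from 88.4% to 91.9% in RNA to 6.30% to 8.51% in footprints (log2 change -3.59 ± 0.35, edgeR adjusted p = 4.07e-12). Palld-207, from the gene of the actin-associated protein palladin, stood at 96.5% to 97.25% in RNA and 6.68% to 12.1% in footprints (edgeR adjusted p = 1.16e-14). Brpf1-206, from a gene of histone acetyltransferase complexes, stood at 89.1% to 93.2% in RNA and 4.42% to 11.1% in footprints (edgeR adjusted p = 8.97e-06).

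Pfkp-212, of the platelet-type phosphofructokinase gene, was also lower in footprints, at 8.05% to 16.6% against 50.8% to 54.6%. So was Ccz1-203, of a gene for a Rab7 activator, at 7.99% to 23.4% against 83.0% to 86.5%. Ppia-204 was the one member of the 10 most abundant whose share was higher in footprints. Its gene encodes cyclophilin A, and its footprint shares were 90.1% and 92.5% (WT) and 93.0% and 90.7% (DKO), against RNA shares of 26.9% and 27.5% (WT) and 28.0% and 31.9% (DKO) (log2 change 1.68 ± 0.23, edgeR adjusted p = 3.28e-06).

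The other 3 of the 10 did not pass the test. Ttc3-209, of a ubiquitin ligase gene, held 24.4%, 23.6%, 24.0% and 24.7% in footprints and 24.0%, 23.4%, 23.6% and 23.6% in RNA. These 2 ranges overlapped, and the fitted log2 change was 0.03 ± 0.48. Fgd4-205, of a gene for a Cdc42 exchange factor, stood at 65.9% to 70.8% against 76.1% to 78.8%. Rps20-201 stood at 30.1% to 52.7% against 51.7% to 58.3% (edgeR adjusted p = 0.253).

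Among members with a mean count of 50 or more, the 10 with the largest rise in footprints had no or almost no RNA counts. Syn2-205, of the synapsin II gene that encodes a synaptic vesicle protein, held 92.1%, 92.6%, 92.1% and 91.4% of its gene's footprints and had 0 counts in all 4 RNA libraries. Against a floor of 3 counts over the RNA group, this share was at least 7252-fold higher. Tecpr1-209, of an autophagy gene, held 83.8% to 91.0% of footprints and Sez6-209, of a neuronal membrane protein gene, 79.3% to 83.5%, both with 0 RNA counts. Coding content of the 10 ran from 36.5% (Nsmf-218) to 92.6% (Sez6-209). It was 80.8% in Tecpr1-209, 60.2% in Syn2-205, 54.9% in Rab14-211 and 47.9% in Pomp-206. Syn2-205 and Pomp-206 had 0% intronic bases. Rab14-211 (39.2% to 49.99%), Nsmf-218 (40% to 53.6%), Tmem135-208 (36.7% to 41.9%), Pomp-206 (26.5% to 31.5%) and Tpm3-209 (11.98% to 15.8%) were at 0 in RNA as well. Actg1-207, of the gamma-actin gene, was also at 0 in RNA, and its footprint share varied from 0.123% to 4.81%. Sparc-205, of a secreted matrix protein gene, held 65.3% to 69.2% of footprints and was at 0 in 3 RNA libraries and at 0.112% in DKO replicate 1.

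The 10 with the largest fall had 0 counts in all 4 footprint libraries. Wnk1-208 (24.0% to 29.1% of RNA), of a kinase gene, and Apbb2-219 (15.8% to 25.6%) were 81.9% and 78.1% untranslated region. Syn3-203, of the synapsin III gene, held 34.5% and 35.4% of WT RNA counts and 19.8% and 24.3% of DKO ones, and 82.1% of its bases are intronic. Also among them were Ncoa2-207 (30.3% to 46.9%), Uchl5-208 (25.6% to 40.1%), Cd9-203 (26.4% to 28.3%), Zer1-209 (12.2% to 15.9%) and Evi5l-201 (6.83% to 14.9%). Of these, Ncoa2-207 is 68.5% coding, Evi5l-201 42.8%, Uchl5-208 42.3% and Zer1-209 34.5%.

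Genes of the splicing machinery held members in both directions. For this and every list that follows, the background over all transcripts tested is 25.0% higher and 32.6% lower. In the SR protein list, 9 of 21 tested members were higher in footprints and 11 lower, with a median log2 share ratio of -1.44. Srsf6-204 held 95.0%, 94.7%, 95.0% and 91.7% of Srsf6 counts in footprints and 30.7%, 30.0%, 33.4% and 32.7% in RNA (log2 change 1.57 ± 0.14, edgeR adjusted p = 1.73e-06). Srsf2-203, which overlaps Mettl23 on the other strand and is 10.4% coding, held 5.81%, 4.27%, 6.65% and 5.26% in footprints and 40.4%, 40.04%, 46.7% and 43.4% in RNA (log2 change -2.98 ± 0.25, edgeR adjusted p = 1.20e-08). The 2 SR protein members thus lay on opposite sides, with no overlap between assays in either.

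Among the CLK, SRPK and DYRK kinases, which phosphorylate splicing factors, 4 of 19 members were higher and 13 lower, with a median of -2.15. Clk1-204 held 7.79% and 7.0% of WT footprints and 3.56% and 7.64% of DKO footprints, against 33.8%, 35.7%, 34.8% and 35.6% in RNA (log2 change -2.42 ± 0.36, edgeR adjusted p = 7.05e-07). Clk4-213 held 1.05% to 2.71% in footprints and 21.6% to 22.1% in RNA (log2 change -3.42 ± 0.32, edgeR adjusted p = 1.00e-11). Both carry the kept introns with early stops printed above.

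In the hnRNP list 7 of 40 members were higher and 24 lower (median -2.82). Both named members of that list were higher, and both are mostly coding: Hnrnpa3-205 (80.5% coding) at 18.8% to 23.9% against 0.714% to 2.34%, and Hnrnpk-212 (89.8% coding) at 10.9% to 19.5% against 0% to 1.43%. Of 30 members from core snRNP genes, 3 were higher and 21 lower (median -3.03). Sf3b1-203, of the U2 snRNP subunit gene, stood at 2.38% to 3.68% in footprints and 20.4% to 25.9% in RNA (edgeR adjusted p = 1.55e-12). Snrpb2-203, of another U2 snRNP gene, stood at 36.6% to 45.1% against 15.4% to 25.9% (edgeR adjusted p = 0.0162). Its call was lost without WT RNA replicate 2 (edgeR adjusted p = 0.0915), without WT replicate 2 in both assays (0.147) and in WT (0.0593) or DKO (0.173) alone.

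Genes known for detained or retained introns had 14 of 85 members higher and 53 lower (median -2.44). Rbm5-219, of a splicing regulator gene, held 1.81%, 1.56%, 1.45% and 2.11% of footprints and 40.4%, 41.8%, 53.1% and 38.0% of RNA. Ccnl2-205, of the cyclin L2 gene, held 18.5% to 21.5% against 72.8% to 78.9%. For factors of nonsense-mediated decay and the exon junction complex, 1 of 20 was higher and 7 lower (median -1.45). The median of all tested members was close to this, at -1.44. The part of this list that was lower was near the background of 32.6%. Neither named member of that list passed: Smg1-206, of a decay kinase gene, stood at 82.8% to 94.1% against 65.8% to 70.6%, and Rbm8a-204, of an exon junction core gene, at 11.3% to 19.5% against 10.2% to 12.6%.

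Neuronal splicing regulators had 10 of 33 members higher and 15 lower (median -2.22). Elavl2-210, of a neuronal RNA-binding protein gene, stood at 25.5% to 29.8% in footprints and 1.01% to 1.18% in RNA, and Rbm4b-202 (87.6% intronic) at 0.636% to 3.29% against 63.6% to 70.3%. Synaptic genes had 14 of 74 higher and 37 lower (median -1.82). Pclo-203, of the gene of the active zone protein piccolo, has 88.9% of its own bases in coding sequence. It stood at 96.8% to 98.6% against 76.6% to 79.5%. The 4 and 4 values did not overlap, yet the fitted change missed the threshold (edgeR adjusted p = 0.216).

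Summed over all genes of a list, members went the other way in 3 of the lists above where more members were lower. They took 10.9% to 12.7% of hnRNP counts in footprints and 9.11% to 10.1% in RNA, 11.9% to 14.2% against 9.62% to 10.7% for neuronal splicing regulators, and 15.003% to 15.96% against 8.11% to 8.54% for synaptic genes.

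In genes of the translation machinery, 11 of 97 ribosomal protein members were higher and 58 lower (median -2.87), and 13 of 41 initiation factor members were higher and 21 lower (median -2.14). Their summed members took more of the footprint counts in both lists, at 7.12% to 8.90% against 5.05% to 5.33% for ribosomal proteins and 10.7% to 12.6% against 4.32% to 4.99% for initiation factors. Rpl27a-201 held 83.0%, 80.2%, 81.9% and 79.0% of footprints and 23.2%, 18.6%, 30.7% and 27.2% of RNA (edgeR adjusted p = 3.78e-06). Eif5b-202, of the gene for a ribosomal subunit joining factor, held 87.4%, 86.0%, 88.6% and 86.4% against 11.9%, 10.3%, 17.1% and 15.8% (log2 change 2.69 ± 0.14, edgeR adjusted p = 8.74e-10). Eif4h-204, of a helicase cofactor gene, held 53.8% to 67.9% against 2.41% to 3.85%. All 3 stood above their RNA shares in every footprint library. Rpl27a-201 and Eif5b-202 hold whole introns with a stop in frame. The table does not say where on a transcript a count fell. Ribosomal protein and hnRNP genes have near-identical copies elsewhere in the genome, so the split of their counts is uncertain.

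**Figure D4:**
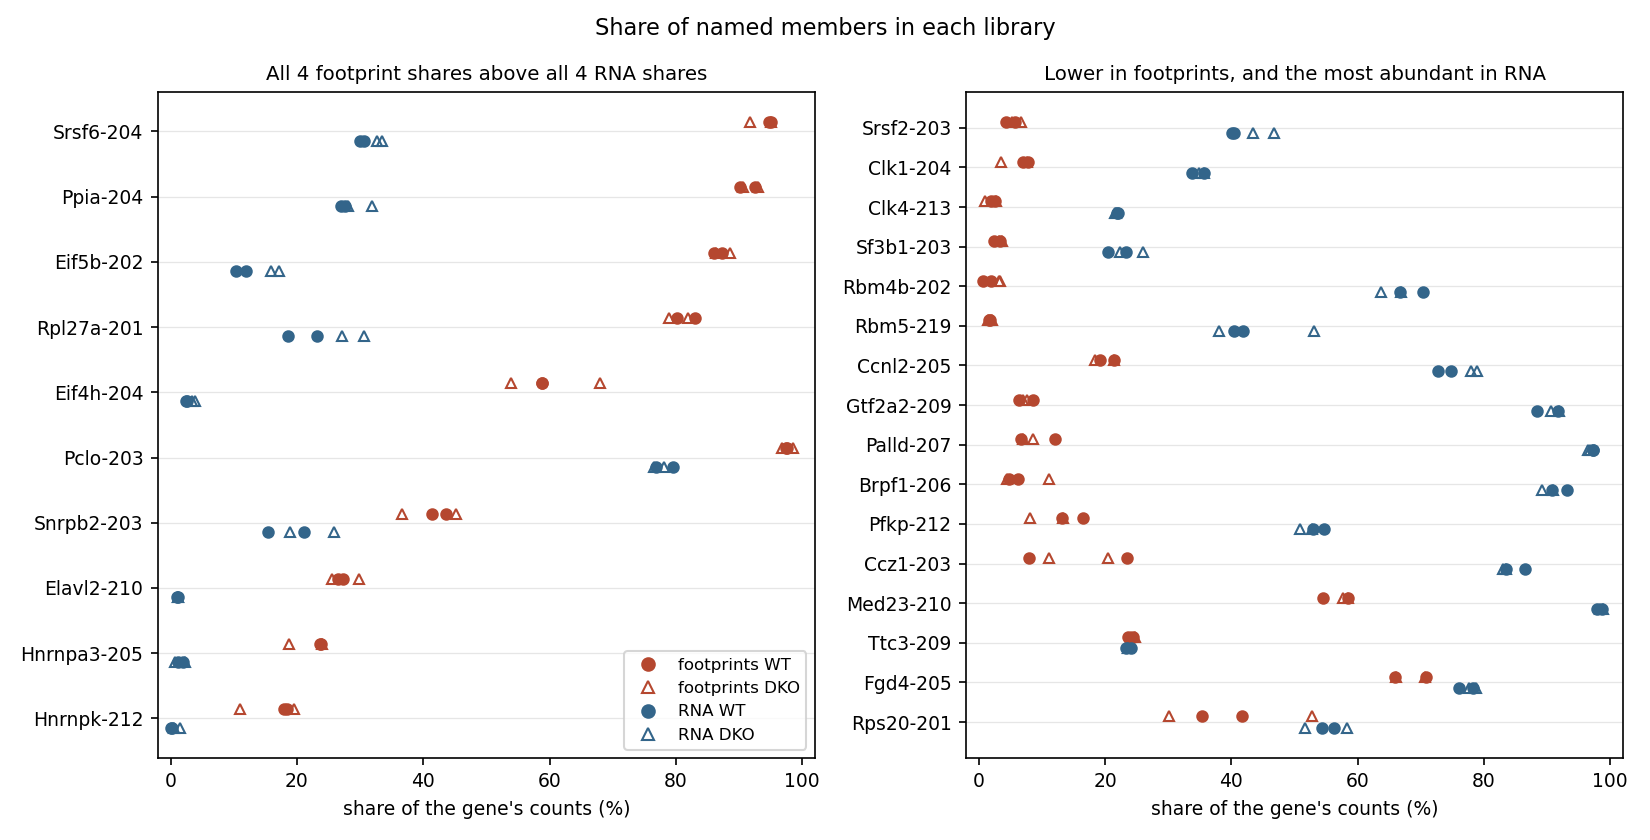
Share of the gene's counts (%) of 26 named members in each of the 8 libraries, footprints in red above each line and RNA in blue below it (circles WT, open triangles DKO). In the left panel all footprint shares exceed all RNA shares, as for Srsf6-204 (91.7% to 95.0% against 30.0% to 33.4%), and in the right panel Ttc3-209, Fgd4-205 and Rps20-201 did not pass the test.

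The second comparison asks whether shares differed between DKO and WT. Summed over members, DKO minus WT was 0.0937 percentage points in RNA (4.72% ± 0.198 against 4.63% ± 0.0102, SD, n = 2 each, exact permutation p = 1). It was -0.161 points in footprints (7.04% ± 0.152 against 7.20% ± 0.00309, exact permutation p = 0.333, the smallest that 2 against 2 allows). The RNA difference was -0.0465 without DKO replicate 1 and 0.234 without DKO replicate 2. The footprint difference was -0.269 and -0.0539 without the same replicates. The median absolute change in share between genotype means was 0.765 points in RNA and 0.836 in footprints. The replicate differences given above were larger, but they are between single libraries. Means of 2 libraries vary less, so the 2 measures are not on the same scale.

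Few members passed the test. In simulated data it recovered 12 of 100 4-fold genotype changes in RNA and 10 of 100 in footprints. These changes were placed only in members with a mean count of 50 or more. Few calls therefore do not show that few members differ. In RNA 15 members were higher in DKO (0.238% of all transcripts were) and 7 lower (background 0.155%), which makes 22 in all (background 0.393%). In footprints 4 were higher (background 0.127%) and 6 lower (background 0.116%), or 10 in all (background 0.244%). The genotype change differed between assays for 14 members (background 0.335%). At an unadjusted p under 0.05 there were 217 members in RNA and 447 in footprints, where evenly spread p-values would give 435. Over all transcripts there were 1519 in RNA and 1835 in footprints, where 1806 would be expected. In RNA both numbers fell short, so p-values there were not evenly spread and the expected numbers are only a rough guide. Under other settings the count of 22 in RNA ranged from 5 to 45 and the count of 10 in footprints from 3 to 43. With the replicate number as a block, 13 and 3 were called (backgrounds 0.205% and 0.102%). By DESeq2, 45 and 43 were called (backgrounds 0.933% and 0.739%). WT replicate 2 was the library pair with the highest markers of fibroblasts, progenitors and the other cell types named above. Leaving it out in both assays leaves WT without replicates, and most calls in RNA and in footprints were lost. Most RNA calls were also lost when any other RNA library was left out. Most footprint calls were also lost without some, but not all, of the other footprint libraries. The part of those markers in the genotype calls was not tested.

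The 15 members higher in DKO RNA mostly had an estimated count of 0 in WT RNA, 12 of them in both libraries. Rsl1d1-202, of a ribosome biogenesis gene, had 0 and 0 counts in RNA of WT, against 79 and 44 in DKO, or 1.55% and 2.38% of the gene (at least 29.6-fold, edgeR adjusted p = 0.000217). Srpr-204, of the gene for a signal recognition particle receptor subunit, had 0 and 0 against 42 and 15 counts, or 1.11% and 1.17% (at least 9.89-fold, edgeR adjusted p = 0.00029). Mydgf-202, of a secreted growth factor gene, had 0 and 0 against 41 and 20 counts. In footprints, in contrast, these transcripts were abundant in both genotypes. Srpr-204 held 37.2% and 33.5% of its gene's WT footprints and 35.7% and 33.3% of the DKO ones, and Mydgf-202 held 48.0% to 60.5%.

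Of these 15 members, 11 had a mean footprint share above 9%. Agk-206 (23.6% to 29.2% of footprints), Pag1-203 (9.86% to 24.0%), Tmem120a-203 (12.3% to 21.9%), Ank-202 (12.3% to 14.4%) and Sirt2-204 (2.42% to 11.9%) had 0 counts in both WT RNA libraries and 5 to 105 counts in DKO RNA. Slc25a1-204, of the citrate carrier gene, had 1 and 0 against 112 and 36 counts, and Wdr77-202, of a methyltransferase cofactor gene, had 0 and 7 against 154 and 41. Tpm3-212 went from 0 and 0 to 189 and 66 counts. Tpm3-215, of the same tropomyosin gene, rose from 3.72% and 3.12% to 35.6% and 25.1% of RNA counts (110 and 161 against 3794 and 847 counts, log2 change 3.18, edgeR adjusted p = 0.0211), and was chosen after its values were seen. It was the only one of the 15 above 0 counts in both WT libraries. DKO replicate 1 is the deepest library, at 44780982 counts.

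Lower in DKO RNA were Sept9-208, a septin gene transcript, with 4 and 11 counts in WT and 0 and 0 in DKO, and Msto1-203 with 16 and 50 against 6 and 0. The other 5 were Rps2-203, Golga1-204, Mrps11-206, Atg16l1-211 and Apod-201, all at 0 in both DKO libraries, with at most 73 counts in a WT library. In Atg16l1-211 WT replicate 2 was at 0 as well. Rps2-203 and Golga1-204 had counts in the 2 WT RNA libraries and 0 in the 6 others, so they passed the count rule only through the group where they are high.

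In footprints, Rcn1-202, of an endoplasmic reticulum calcium-binding protein gene, had 37 and 57 counts in WT (1.70% and 3.26%) and 0 and 0 in DKO, at least 24.2-fold lower (edgeR adjusted p = 0.00341), while its RNA share was 11.4%, 11.5%, 13.99% and 9.98%. Lsg1-208, of a ribosome maturation GTPase gene, had 26 and 3 against 0 and 0. Osbpl9-217, of a lipid transfer protein gene, went the other way, with 0 and 0 in WT and 22 and 47 in DKO (at least 25.5-fold, edgeR adjusted p = 0.00569). Rnf214-203 and Fancg-202, the latter of a DNA repair gene, were likewise at 0 in WT, with 7 and 28 and with 20 and 19 counts in DKO. Hnrnpk-215 was called on 466 counts in DKO replicate 2 alone, with 0 in the 3 other footprint libraries. Zfp282-202, the next by p, did not pass (edgeR adjusted p = 0.0567). Uqcrh-205, Pik3r2-204, Cbr4-206 and Wdr11-205 completed the 6 that were lower, all at 0 in DKO.

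**Figure D5:**
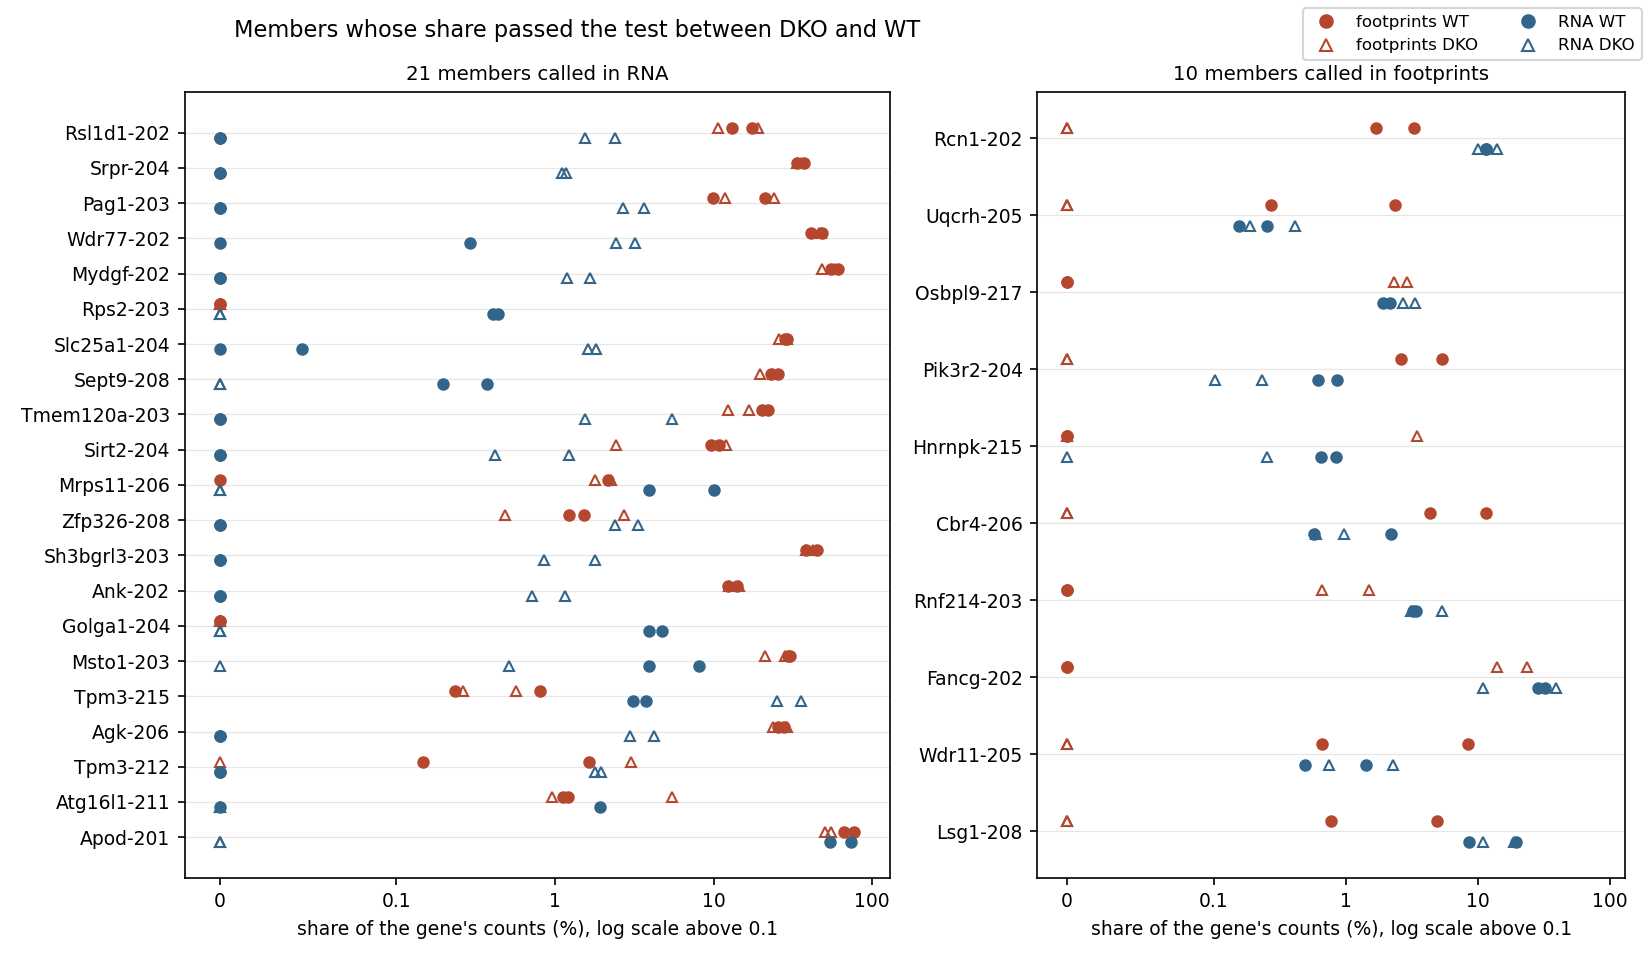
Share of the gene's counts (%, log scale above 0.1) in each library for 21 of the 22 members called between DKO and WT in RNA (left) and the 10 called in footprints (right), with footprints in red and RNA in blue (circles WT, open triangles DKO). Most calls set 0 in 1 genotype against a few percent in the other, as for Rsl1d1-202 in RNA (0% and 0% against 1.55% and 2.38%).

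By gene list, genotype calls were rare: no list had more than 1 call in an assay. The call among ribosomal proteins in RNA was Rps2-203, with the limit just given, and that among hnRNP members in footprints was Hnrnpk-215. In 7 of the remaining lists no member was called. The targeted genes themselves each had 1 named member. Eif4g1-209 held 1.13% and 1.09% of Eif4g1 counts in the WT and 1.89% and 1.17% in the DKO RNA libraries, and 0.0206% to 0.193% in footprints. Eif4g3-209 held 0.585% and 2.41% in the WT and 1.22% and 0.675% in the DKO RNA libraries, and was at 0 in footprints. Neither passed the genotype test.

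Small RNA genes lie within 88 members, of which 50 hold a microRNA and 32 a small nucleolar RNA gene. These 88 took 0.140% to 0.164% of footprint counts and 0.311% to 0.421% of RNA counts, and 17 of 87 tested were higher in footprints and 47 lower. Of all transcripts tested, 25.0% were higher and 32.6% lower. Another 972 members overlap a gene on the opposite strand. The sources used here do not say whether counting used strand, and for these 972 reads of the 2 genes may not be told apart. They were higher in 136 and lower in 464 of 952 tested, and the 7746 tested without such overlap were higher in 1691 and lower in 3296.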

How the data were processed

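The data are footprint and total RNA libraries, 4 groups of 2. The authors deposited 1 table of estimated counts for each transcript, all whole numbers. FastQC, Trimmomatic, Bowtie and kallisto are named, with no versions, per the submitters' processing notes. Genome build and strand setting: not given in the sources used here. The transcript set is not described either, but the deposited counts are labelled prot_trans and tsl. This may stand for transcripts of protein-coding genes filtered by transcript support level. Of 18335 matched genes, 18321 are protein coding. For 163 genes with members the table holds no coding transcript, and shares rest only on transcripts it holds. kallisto divides reads among transcripts that share sequence, so a member's count is an estimate and not a count of intronic reads. Cycloheximide before lysis can shift footprints along a transcript.

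Of 60528 transcripts, 60483 (99.9%) matched GENCODE M21, from which types, exons, coding sequence and intron sequence were taken. The 45 others were left out. Shares used all matched transcripts of a gene. The test was edgeR 4.0.16 (R 4.3.3): TMM scaling, robust dispersions, a mean for each group, quasi-likelihood fit and diffSpliceDGE, which sets each transcript's log2 change against its gene's. It ran over 36114 transcripts with 10 counts in 2 libraries, in genes with at least 2 such transcripts, with Benjamini-Hochberg adjustment and a threshold of 0.05. SE is the log2 change over the root of F. In simulated data, changes were placed in counts of members with a mean count of 50 or more. Between assays, 47 of 100 4-fold and 92 of 100 16-fold changes were recovered. For DKO against WT, 12 and 76 were recovered in RNA and 10 and 68 in footprints. Calls in unchanged genes numbered 9, 4 and 1. Alternatives were RLE scaling, other count filters, coding and retained-intron transcripts only, members of a gene summed, DESeq2 1.42.0, limma 3.58.1 on log2 ratios (pseudocount 0.5), each library left out, a replicate block and, chosen after seeing the data, both WT replicate 2 libraries left out. Blocks paired libraries by genotype and replicate number between assays and by replicate number between genotypes. The description codes match between assays except in DKO replicate 2, so that pair is uncertain. Over single transcripts, the replicate differences of same-numbered libraries were almost uncorrelated (-0.058 to 0.017). Markers of several cell types were nonetheless highest in WT replicate 2 in both assays. These correlations therefore do not show same-numbered libraries to be independent. The 2 libraries of a group differed by more than sampling noise (chi-square per degree of freedom 8.95 to 15.9).

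Members, gene lists and the naming rule were chosen with earlier results of these data known. The rule named the 10 members highest in RNA, the 10 largest called changes per direction with mean count 50 and no overlap of shares (5 smallest p where fewer than 5 were called), 2 per gene list with the largest counts, and members of Eif4g1 and Eif4g3. Permutation tests used scipy 1.17.1. The values of 3 members that the rule or the genotype test picked are not reported here.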

Additional observations from a re-analysis of the deposited data

Results flagged for a closer look

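The difference between DKO and WT itself differed between footprints and RNA for 14 members by edgeR's test of genotype by assay (background 0.127% higher and 0.208% lower over all transcripts). Values are fitted log2 differences, DKO over WT in footprints minus the same in RNA, and depend on the prior count where a group is at 0. Of these, 11 were negative. Those led by counts that were 0 or nearly 0 in WT RNA were Rsl1d1-202 (-8.51), Mydgf-202 (-7.33), Srpr-204 (-6.94), Slc25a1-204 (-6.14), Wdr77-202 (-3.93), Pag1-203 (-7.94), Sirt2-204 (-7.42), Tmem120a-203 (-7.68) and Sh3bgrl3-203 (-5.94). Rcn1-202 (-8.84) and Uqcrh-205 (-10.56) were at 0 in DKO footprints. Positive were Hnrnpk-215 (13.71), Sept9-208 (5.63) and Mrps11-206 (9.08). With libraries paired by replicate number as a block, Rsl1d1-202 (adjusted p = 0.0374, edgeR) and Srpr-204 (0.0367) passed and the 12 others did not.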

How the results depend on the processing

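Of 1521 values of named members under alternatives, 1320 kept their side of the threshold, 186 lost the call, 15 gained it and none changed sign. This total pools footprints against RNA with the genotype comparisons. For footprints against RNA, only values of the named Snrpb2 member lost the call. Most of the lost calls were therefore in the genotype comparisons, including genotype by assay. Among all called members, up to 30 of 5587 for footprints against RNA (coding and retained-intron transcripts only) and 1 of 22 in RNA (without DKO RNA replicate 1) reversed. Of all transcripts, 57.6% were called for footprints against RNA in the main fit, 64.8% at a mean count of 50 and 51.9% with the replicate block. For footprints against RNA, members higher and lower numbered 1827 and 3760. They numbered 1122 and 1217 at a mean count of 50, 1051 and 1702 with members of a gene summed, 2405 lower in DKO alone, 1618 to 1754 and 3267 to 3544 without 1 library, and 1620 and 3427 with the replicate block. The summed-share difference was 2.42 to 2.51 points without 1 library (exact permutation p = 0.0571, the smallest possible), 2.41 without WT replicate 2 in both assays, 2.45 with the replicate block and 5.88 per transcript length.

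Genotype counts moved more, and the percentage of all transcripts called moved with them. In RNA it was 0.393% in the main fit, 0.933% by DESeq2 and 0.205% with the replicate block. In footprints it was 0.244%, 0.739% and 0.102%, and 0.260% by limma. For genotype by assay it was 0.335%, 0.833% and 0.0581%. In RNA 22 members became 45 (DESeq2), 5 (members summed), 13 (replicate block), 12 (without WT replicate 2 in both assays) and 10 to 25 without 1 library, lowest without WT RNA replicate 1. In footprints 10 became 43 (DESeq2), 24 (limma), 6 (no filter), 3 (replicate block) and 6 to 19 without 1 library. For genotype by assay 14 became 43 (DESeq2), 0 (limma), 7 (members summed), 2 (replicate block) and 5 to 24 without 1 library. By edgeR 424 members, and 2150 of all transcripts, had an unadjusted p under 0.05. The causes were not tested. Per transcript length, DKO minus WT in RNA was 0.343 points.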
